A study of Mus musculus with 93 samples.

Results

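The major urinary proteins were followed through 10 of their genes, Mup1, Mup2, Mup3, Mup7, Mup10, Mup11, Mup16, Mup17, Mup20 and Mup21, out of 53465 genes counted in the liver. The genes were chosen by symbol from the annotation of the counted genes, with earlier results on these data known, among them the change of Mup17 with diet in C57BL/6J. All 10 were found and all 10 passed the filter on low counts, so no member is missing from the comparisons. The livers came from 93 male mice of 7 inbred strains, moved to thermoneutral housing (30°C) at an age of 6 wk. A week later they were put on a Western diet (WD, 40% of energy from fat) or a control diet (CD, 10%). Livers were taken at 24 wk, when the diets had been fed for 17 wk, following a 4 h fast. On CD there were 8 C57BL/6J, 6 DBA/2J, 5 A/J, 7 129S1/SvImJ, 6 WSB/EiJ, 7 CAST/EiJ and 6 PWK/PhJ mice. On WD there were 8, 7, 6, 6, 6, 8 and 7 mice of these strains in the same order. The labels name no transgene or engineered allele, and each strain stands for 1 inbred genotype. Levels are in CPM, a gene's share of the reads of a mouse scaled to a fixed library size with TMM factors. Sequencing gave 40020424 to 49894856 reads on genes per mouse.

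Major urinary proteins are small lipocalins, barrel-shaped carriers of hydrophobic molecules. The mouse liver secretes them into the blood and the kidney passes them into the urine, where they hold and slowly release pheromones. Most of the genes are expressed more in males, under the pulsed male pattern of growth hormone, with STAT5B as the growth hormone effector. Mup20 encodes darcin, the male pheromone that females find attractive.

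All 10 members lie in 1 cluster on the minus strand of mouse chromosome 4 (GRCm38), from Mup7 at chr4:60066469-60070475 to Mup21 at chr4:62147932-62150863. Mup17 is at chr4:61591929-61595871, Mup20 at chr4:62050234-62054158 and Mup3 at chr4:62083476-62087342. The annotation holds 49 Mup genes, of which 22 are protein-coding and 27 are pseudogenes. Copies that are almost the same cannot be told apart by a short read, and STAR's gene counts hold uniquely mapped reads only. The same 90-base stretch of each coding sequence (GENCODE transcripts, GRCm38, 5′ to 3′ on the coding strand) shows how close the copies are. It is printed because it decides which counts can be read gene by gene. Capitals mark bases that differ from the commonest base at that position among the 10 members.
Mup17: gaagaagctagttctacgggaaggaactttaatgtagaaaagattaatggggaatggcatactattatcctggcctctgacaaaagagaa
Mup1: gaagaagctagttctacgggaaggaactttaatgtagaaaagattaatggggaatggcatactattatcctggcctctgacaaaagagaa
Mup10: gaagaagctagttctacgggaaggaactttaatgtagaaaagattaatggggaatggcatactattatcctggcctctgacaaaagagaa
Mup11: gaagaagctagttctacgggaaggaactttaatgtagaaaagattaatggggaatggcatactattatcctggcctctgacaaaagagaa
Mup2: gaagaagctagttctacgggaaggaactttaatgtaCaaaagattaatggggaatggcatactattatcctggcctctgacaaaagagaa
Mup7: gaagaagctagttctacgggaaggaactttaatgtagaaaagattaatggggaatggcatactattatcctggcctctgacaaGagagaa
Mup16: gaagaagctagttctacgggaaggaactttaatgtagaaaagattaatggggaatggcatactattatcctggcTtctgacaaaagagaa
Mup20: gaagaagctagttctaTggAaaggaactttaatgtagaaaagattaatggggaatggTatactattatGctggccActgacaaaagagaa
Mup3: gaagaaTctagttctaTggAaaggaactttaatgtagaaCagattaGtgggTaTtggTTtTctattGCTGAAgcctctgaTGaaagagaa
Mup21: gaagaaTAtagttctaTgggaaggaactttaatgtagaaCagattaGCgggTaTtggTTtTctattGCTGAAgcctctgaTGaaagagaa
Mup1, Mup10, Mup11 and Mup17 were identical in this stretch. Counted from 1 at the first base printed, Mup2 differed by G37C, Mup7 by A84G and Mup16 by C75T. Mup20 differed at 5 positions, Mup3 at 18 and Mup21 at 19. Over the last 486 coding bases, the 7 members other than Mup3, Mup20 and Mup21 were 98.8% to 99.8% identical to each other. Mup20 was 90.1% to 90.7% identical to those 7, Mup3 and Mup21 were 83.7% to 84.4% identical to them, and Mup3 and Mup21 were 96.9% identical to each other.

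Over whole transcripts, Mup3 and Mup21 were also the easiest to tell apart. Of the 100-base windows of its transcripts, 97.8% were found in no other gene for Mup3, 95.5% for Mup21 and 61.2% for Mup20. All the shared windows of Mup20 were shared with the pseudogene Mup-ps19. The share was 44.3% for Mup1, 40.6% for Mup17, 29.4% for Mup11, 26.6% for Mup10, 24.5% for Mup2, 23.9% for Mup7 and 17.6% for Mup16. Each of these 7 shared windows with 16 or 17 other genes, so their counts are uncertain and can hold or miss reads of a copy. In strains other than C57BL/6J, whose genome was the reference, a count on one of these genes can also come from a copy that the reference does not hold.

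**Figure D1:**
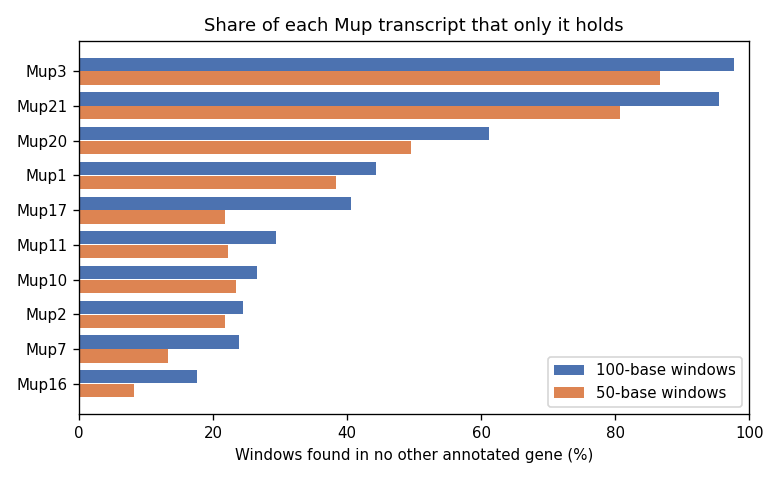
Share of each transcript's 50-base and 100-base windows (%, horizontal axis) that no other annotated gene holds, for the 10 Mup genes. Mup3 (97.8%) and Mup21 (95.5%) stand far above Mup16 (17.6%) for the 100-base windows.

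The promoters of Mup17 and Mup3 are shown because the former gene rose on WD in PWK/PhJ and the latter did not pass the test in any of the 6 strains tested. The sequences are those of the C57BL/6J reference, and the PWK/PhJ promoters were not examined. RefSeq promoter entries (GRCm38.p6, 250 bases before to 50 bases after the start) were found for 7 of the 10 members, and none was found for Mup1, Mup16 and Mup20. Capitals mark ATCAAT, a core bound by ONECUT factors such as HNF6, searched on both strands. The Mup17 entry is chr4:61595783-61596082 and the Mup3 entry is chr4:62087268-62087567, both on the minus strand.
Mup17: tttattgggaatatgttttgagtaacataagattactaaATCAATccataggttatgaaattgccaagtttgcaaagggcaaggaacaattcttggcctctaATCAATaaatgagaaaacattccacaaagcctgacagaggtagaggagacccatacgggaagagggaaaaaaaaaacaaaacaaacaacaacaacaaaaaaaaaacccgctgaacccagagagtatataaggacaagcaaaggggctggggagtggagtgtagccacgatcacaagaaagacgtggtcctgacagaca
Mup3: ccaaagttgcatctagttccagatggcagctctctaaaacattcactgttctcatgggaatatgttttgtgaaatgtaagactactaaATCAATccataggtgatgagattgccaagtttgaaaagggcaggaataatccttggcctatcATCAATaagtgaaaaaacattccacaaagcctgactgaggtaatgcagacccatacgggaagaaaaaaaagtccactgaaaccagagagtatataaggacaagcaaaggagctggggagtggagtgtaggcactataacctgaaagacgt
All 7 promoters held ATCAAT at 2 places, with starts 63 bases apart in 5 of them and 62 bases apart in Mup3 and Mup21. Of 32851 promoters of the same length, 7.54% held it. The members are copies of one another, so their promoters are not separate observations. TTCNNNGAA, the STAT5 motif searched on both strands, was in none of the 7 windows and in 8.30% of all promoters.

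Together the 10 members took up between 0.244% and 1.98% of reads on genes as a group mean. WSB/EiJ was highest, with 1.45% ± 0.239 (SD, n = 6) on CD and 1.98% ± 0.266 (SD, n = 6) on WD. PWK/PhJ was lowest, with 0.244% ± 0.0763 (SD, n = 6) on CD and 0.288% ± 0.101 (SD, n = 7) on WD. In C57BL/6J the 8 CD mice ranged from 0.0318% to 1.51% (mean 1.05%), the widest spread of the 14 groups, and the WD mice had 0.923% ± 0.310 (SD, n = 8). DBA/2J had 1.16% ± 0.0528 (SD, n = 6) on CD and 0.824% ± 0.0574 (SD, n = 7) on WD, and these were the only pair of diet groups whose ranges did not overlap. A/J had 0.458% ± 0.0465 (SD, n = 5) and 0.321% ± 0.0814 (SD, n = 6), 129S1/SvImJ had 0.871% ± 0.188 (SD, n = 7) and 0.715% ± 0.0779 (SD, n = 6), and CAST/EiJ had 0.882% ± 0.188 (SD, n = 7) and 0.984% ± 0.0820 (SD, n = 8), each on CD and WD. All WSB/EiJ mice were in cohorts that held no other strain. For WSB/EiJ, strain and cohort can therefore not be told apart, here or in the levels of single genes below. The other strains shared cohorts only in part, and the levels were not adjusted for cohort. These sums are descriptions with no test. They miss reads of the family that landed on other Mup genes, which brought the CAST/EiJ group means up to 1.53% on CD and 1.83% on WD when all 49 Mup genes were summed.

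**Figure D2:**
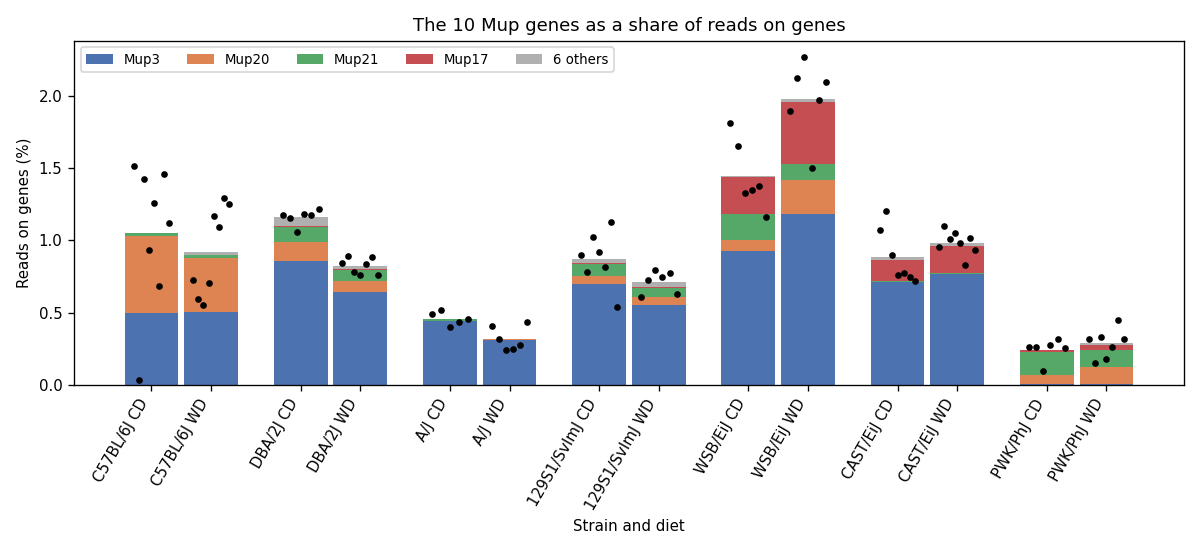
Share of reads on genes (%, vertical axis, from 0) taken by the 10 Mup genes in the 14 strain and diet groups, as group means stacked by gene (Mup3, Mup20, Mup21, Mup17 and the 6 others), with 1 black point per mouse for the sum. Mup17 is a visible part of the bar in WSB/EiJ and CAST/EiJ, and Mup3 is nearly absent from PWK/PhJ.

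Among the 10 members, Mup3 had the highest mean per length in 5 of the 7 strains on both diets. Mup12, which is not a member, stood beside it in CAST/EiJ. On CD it reached 9995 ± 878 CPM per kb (SD, n = 6) in WSB/EiJ, 8116 ± 429.6 (n = 6) in DBA/2J, 7226 ± 1276 (n = 7) in CAST/EiJ, 6451 ± 1142 (n = 7) in 129S1/SvImJ and 4562 ± 515 (n = 5) in A/J. In PWK/PhJ it was at only 71.3 ± 18.5 CPM per kb on CD (n = 6). The 13 PWK/PhJ mice lay between 40.8 and 96.6 CPM, and every mouse of the other strains but 1 lay at 877 CPM or above. The lowest group mean outside PWK/PhJ was 41.2 times the higher PWK/PhJ mean. The exception was a C57BL/6J mouse on CD with 49.7 CPM, described below. Mup3 sequence is nearly unique in the reference, but reads of PWK/PhJ that differ from the reference can be lost in mapping, and this was not tested.

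Mup20, the darcin gene, was highest in C57BL/6J. Its CD mice averaged 5062 ± 2178 CPM (SD, n = 8) and its WD mice 3487 ± 685 CPM (SD, n = 8). DBA/2J followed on CD with 1350.0 ± 143 CPM (SD, n = 6). PWK/PhJ, 129S1/SvImJ and WSB/EiJ had CD means of 638, 556 and 927 CPM, with ranges that overlapped. A/J had 38.4 ± 8.64 CPM (SD, n = 5) on CD. CAST/EiJ stood lowest, with 0.539 to 1.15 CPM (median 0.809) on CD and 0.637 to 1.49 CPM (median 1.06) on WD. The lowest group mean outside CAST/EiJ was 36.0 times the higher CAST/EiJ mean, and no CAST/EiJ mouse overlapped any mouse of another strain. Reads of CAST/EiJ that differ from the reference can be lost in mapping, and this was not tested. On CD and WD, 10.8% and 13.3% of reads mapped nowhere in CAST/EiJ, against 2.23% and 2.82% in C57BL/6J.

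Mup21, the nearest relative of Mup3, had its highest CD levels in WSB/EiJ at 2029 ± 383 CPM (SD, n = 6) and PWK/PhJ at 1554 ± 434 CPM (SD, n = 6). DBA/2J had 987 ± 98.9 CPM (SD, n = 6) and 129S1/SvImJ 849 ± 338 CPM (SD, n = 7). C57BL/6J, A/J and CAST/EiJ were lower, at 199, 92.7 and 82.4 CPM on CD, with overlapping ranges. Mup21 was high in PWK/PhJ, where Mup3 was low. Per length, Mup21 was the leading member in PWK/PhJ on CD (2296 ± 641 CPM per kb, SD, n = 6), and Mup20 in C57BL/6J on CD (5455 ± 2347, n = 8).

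Mup17 had group means from 0.587 to 4619.9 CPM. On CD it was at 2945 ± 1175 CPM (SD, n = 6) in WSB/EiJ and 1550.2 ± 393 CPM (SD, n = 7) in CAST/EiJ. PWK/PhJ, DBA/2J and 129S1/SvImJ had CD means of 104, 93.2 and 80.7 CPM and overlapped. A/J had 17.7 ± 3.68 CPM (SD, n = 5) on CD and C57BL/6J 0.587 ± 0.660 CPM (SD, n = 8), the lowest of the 14 groups. Ordered by level, the groups next to each other overlapped in 9 of 13 pairs for Mup17, in 10 for Mup3, in 11 for Mup20 and Mup7, in 12 for Mup1, Mup16 and Mup21, and in all 13 for Mup2, Mup10 and Mup11.

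**Figure D3:**
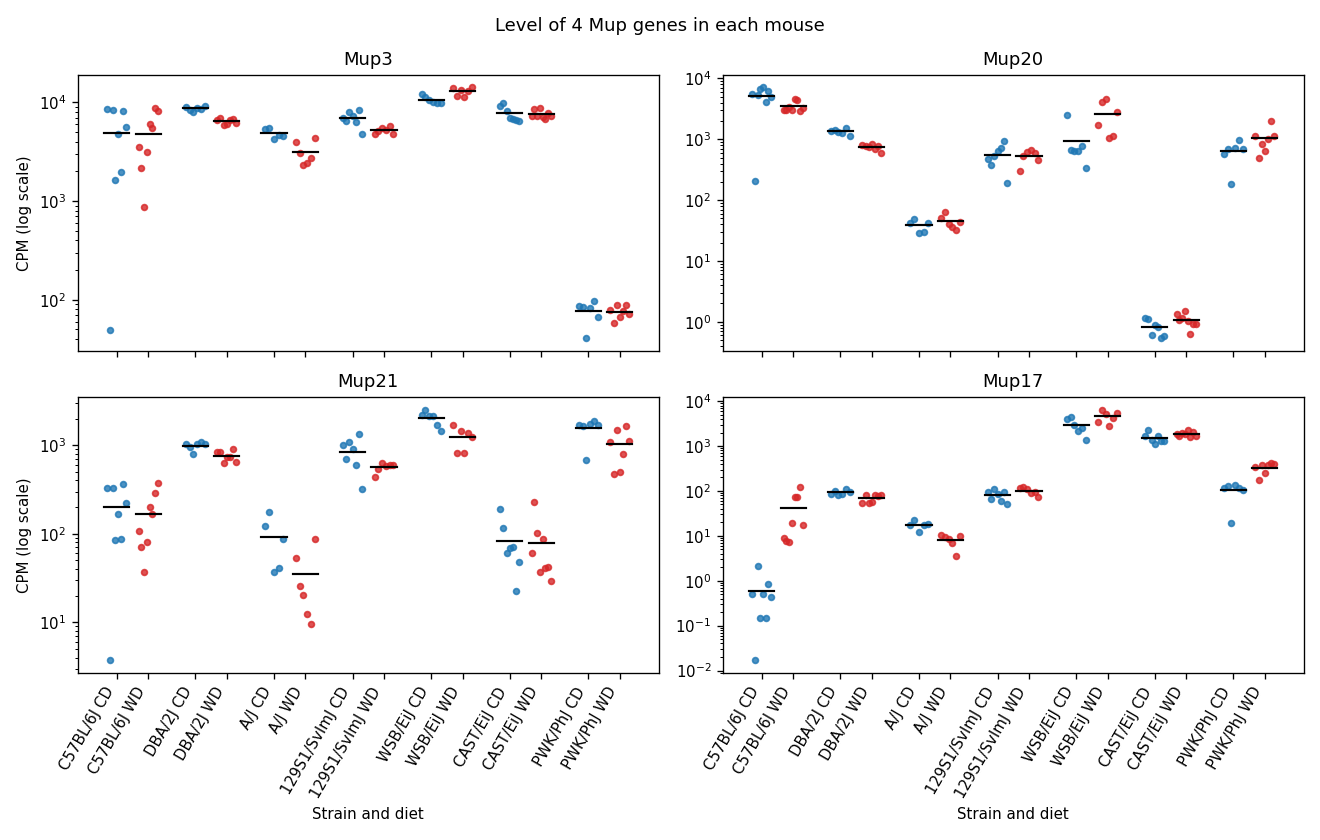
CPM on a log axis for Mup3, Mup20, Mup21 and Mup17 in each of the 93 mice, by strain and diet (blue, CD; red, WD), with a black line at each group mean. Mup3 is low in PWK/PhJ, Mup20 is near 1 CPM in CAST/EiJ, and a single C57BL/6J mouse on CD is the lowest of its group for all 4 genes.

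For the 6 remaining members, whose sequence is mostly shared, the highest group means were between 2.22 and 479 CPM. Mup7 was highest in DBA/2J on CD at 479 ± 73.8 CPM (SD, n = 6) and Mup1 there too, at 71.9 ± 9.30 CPM (SD, n = 6). Mup2 was highest in DBA/2J on CD at 45.4 ± 9.32 CPM (SD, n = 6). Mup11 was highest in C57BL/6J on WD, where the mice ranged from 1.76 to 266 CPM (median 35.8), and Mup16 in PWK/PhJ on WD at 66.5 ± 14.4 CPM (SD, n = 7). Mup10 had its highest group mean in 129S1/SvImJ on WD at 2.22 ± 0.659 CPM (SD, n = 6).

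Whether the diet changed the members was tested within each strain in 1 fit over all 93 mice. Since copies share reads, the counts of members called are not counts of separate observations. In C57BL/6J, Mup17 had been seen to change before the genes were chosen, so all 10 values there are given without a test. Mup17 ranged from 0.0168 to 2.08 CPM (median 0.473) on CD and from 7.34 to 126 CPM (median 18.6) on WD. Every WD mouse lay above every CD mouse, with a log2 difference of 6.27 ± 0.91 (SE). Both cohorts of mice showed it, with differences of 5.18 to 7.13. Mup1 had a log2 difference of 2.94 ± 0.80, Mup11 of 2.80 ± 0.81 and Mup7 of 2.48 ± 1.08, and their diet groups overlapped. For Mup7 the cohorts disagreed, at -0.50 to 6.19. Mup20 had -0.14 ± 0.37 and Mup3 0.53 ± 0.41. Mup2 had 1.84 ± 0.63, Mup16 1.83 ± 0.72, Mup10 1.27 ± 0.68 and Mup21 0.12 ± 0.47. As a description of the contrast through which the genes were chosen, from which nothing is read, 4 of the 10 (Mup1, Mup2, Mup11 and Mup17) lay past the threshold used in the other strains, all higher on WD. Of all genes, 26.2% lay past it, 14.3% upwards and 11.9% downwards. Of all genes, 0.806% had every WD mouse of this strain above every CD mouse. The change of Mup17 was known before the choice, so its separation is not weighed against this share.

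The C57BL/6J mouse on CD that stood low in Mup3 also stood low in the rest of the family. Its summed members were at 262 CPM against 6230.3 to 15016 CPM in the other 7 CD mice. Mup20 was at 209 CPM against 4154 to 7154 CPM, Mup21 at 3.71 CPM against 84.3 to 363 CPM, and Mup7 and Mup11 had no read. Mup10 had no read either, as in some of the other 7 mice. The 15 male-biased liver genes listed summed to 958 CPM against 2888 to 7467 CPM and the 15 female-biased genes to 760.1 CPM against 77.4 to 406 CPM. Leukocyte markers summed to 444 CPM against 126 to 269.9 CPM, stellate and fibroblast markers to 959 CPM against 329 to 495 CPM, and hepatocyte markers to 119175 CPM against 117107 to 137549.7 CPM. Cholangiocyte markers were higher than in the other mice, at 437 CPM against 43.4 to 199 CPM. Endothelial markers (317 CPM against 379.6 to 427 CPM), growth hormone signalling genes (1033 CPM against 1177 to 1564 CPM) and regulators of Mup genes (905 CPM against 1038 to 1519 CPM) were lower. Its depth and RNA integrity lay within or close to the range of the others (49002006 reads on genes, RNA integrity number 8.7), and its share of unmapped reads was 1.66% against 1.97% to 2.60%. Their part in the low Mup level was not tested. Without this mouse, the Mup17 log2 difference in C57BL/6J was 5.70, that of Mup3 turned from 0.53 to -0.28, and that of Mup21 from 0.12 to -0.59.

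In PWK/PhJ, 3 of the 10 members rose on WD at an adjusted p below 0.05, beside 15.1% of all genes that rose, 14.5% that fell and 29.6% in all, and no member fell. Mup2 ranged from 0.221 to 1.84 CPM (median 1.40) on CD and from 4.54 to 10.4 CPM (median 8.49) on WD. The groups did not overlap (log2 fold change of 2.77 ± 0.59 (SE), adjusted p = 0.000129, limma). Mup17 ranged from 19.2 to 135 CPM (median 116) on CD and from 175 to 411 CPM (median 371) on WD. Again the groups were apart (log2 fold change of 1.86 ± 0.36 (SE), adjusted p = 2.52e-05). Mup16 ranged from 9.90 to 46.9 CPM (median 34.6) on CD and from 43.0 to 86.5 CPM (median 69.3) on WD, with 6 of 7 WD mice above every CD mouse (log2 fold change of 1.11 ± 0.29 (SE), adjusted p = 0.00198). Differences within the 2 cohorts were 2.44 to 2.94 for Mup2, 1.57 to 2.09 for Mup17 and 0.78 to 1.40 for Mup16. The ranges were apart upwards for 3 members (Mup1, Mup2 and Mup17), beside 6.59% of all genes. Mup1 did not pass the test (log2 fold change of 2.02 ± 1.56 (SE), adjusted p = 0.352) at 0 to 0.275 CPM on CD. Mup20 (log2 fold change of 0.75 ± 0.38 (SE), adjusted p = 0.128) and Mup21 (log2 fold change of -0.68 ± 0.59 (SE), adjusted p = 0.422) did not pass it either, and Mup3 had a log2 fold change of 0.03 ± 0.37 (adjusted p = 0.967).

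A PWK/PhJ mouse on CD also stood low, with summed members at 936 CPM against 2518 to 3136 CPM in the other 5. Its male-biased genes summed to 3075 CPM against 4832 to 5870.0 CPM and its female-biased genes to 3793 CPM against 1321 to 1968 CPM. Without it, Mup2, Mup16 and Mup17 still passed, with log2 fold changes of 2.31, 0.79 and 1.42 (adjusted p = 0.00107, 0.0285 and 0.000802, limma). Without the low C57BL/6J mouse, which enters the shared estimate of spread, 5 members rose in PWK/PhJ, with Mup10 (adjusted p = 0.0487) and Mup20 (adjusted p = 0.0363) added. The share of all genes called in that fit is not given here, so the count is not set against a background.

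In WSB/EiJ, 2 of the 10 members rose, beside 4.97% of all genes that rose, 3.97% that fell and 8.94% in all, and no member fell. Mup20 ranged from 333 to 2502 CPM (median 656) on CD and from 1033 to 4617 CPM (median 2274) on WD (log2 fold change of 1.54 ± 0.40 (SE), adjusted p = 0.00569). The ranges overlapped, since 3 of 6 WD mice lay above every CD mouse and 1 CD mouse, at 2502 CPM, lay far above the other 5. Mup2 ranged from 0.141 to 7.22 CPM (median 1.62) on CD and from 1.23 to 19.3 CPM (median 9.86) on WD (log2 fold change of 2.41 ± 0.59 (SE), adjusted p = 0.00327), with 4 of 6 WD mice above every CD mouse. Both cohorts moved the same way, by 1.41 to 1.81 for Mup20 and by 1.17 to 4.73 for Mup2. Mup17, which is highly expressed in this strain, did not pass (log2 fold change of 0.70 ± 0.44 (SE), adjusted p = 0.374). A fit of this strain alone gave Mup20 an adjusted p of 0.0549 and Mup2 of 0.121. In that fit only Mup21 passed, lower on WD (log2 fold change -0.76 ± 0.19, adjusted p = 0.0251), with 5 of 6 WD mice below every CD mouse. The share of all genes called in the fit of this strain alone is not given here.

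In DBA/2J the fitted log2 fold change was negative for all 10 members, though copies that share reads are not separate observations. Only Mup16 passed the test, lower on WD, beside 7.77% of all genes that fell, 10.2% that rose and 18.0% in all. Mup16 ranged from 0.426 to 5.81 CPM (median 2.64) on CD and from 0.0847 to 0.585 CPM (median 0.333) on WD (log2 fold change of -2.96 ± 0.98 (SE), adjusted p = 0.0241). Mup3, Mup7, Mup17 and Mup20 had every WD mouse below every CD mouse, beside 2.60% of all genes whose ranges were apart downwards. Mup20 ranged from 1149 to 1562 CPM (median 1346) on CD and from 585 to 842 CPM (median 763) on WD (log2 fold change of -0.85 ± 0.38 (SE), adjusted p = 0.113). Mup7 ranged from 353 to 562 CPM (median 496) on CD and from 26.1 to 232 CPM (median 160.4) on WD (log2 fold change of -2.16 ± 0.82 (SE), adjusted p = 0.0547). Mup3 ranged from 7943 to 9267 CPM (median 8737) on CD and from 5931 to 6989 CPM (median 6603) on WD (log2 fold change of -0.42 ± 0.48 (SE), adjusted p = 0.618). The standard error of the common fit rests on the spread in all 14 groups. In a fit of DBA/2J alone, 8 members fell, among them Mup20 (adjusted p = 1.12e-05), Mup3 (adjusted p = 9.51e-05) and Mup7 (adjusted p = 0.00186). Without the low C57BL/6J mouse on CD, the common fit called 3 members lower in DBA/2J, Mup7, Mup16 and Mup20. The share of all genes called is not given here for either of these fits, so their counts are not set against a background.

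In A/J, only Mup10 passed the test, lower on WD (log2 fold change of -1.55 ± 0.50 (SE), adjusted p = 0.0368), beside 4.64% of all genes that fell, 4.39% that rose and 9.03% in all. It rested on few reads. The CD mice had 0.763, 0.412, 0.217, 0.534 and 0.626 CPM, between 10 and 33 reads, and the WD mice 0.0622 to 0.415 CPM (median 0.165). The call held in 3 and was lost in 8 of the 11 fits that left out 1 A/J mouse (adjusted p from 0.0144 to 0.108), so the call depends on single mice. Mup7 was at 8.74, 17.3, 2.09, 9.99 and 16.7 CPM in the CD mice and 0.0731 to 0.835 CPM (median 0.383) on WD, so the groups were apart (log2 fold change of -4.79 ± 2.56 (SE), adjusted p = 0.251). edgeR's quasi-likelihood test gave Mup7 an adjusted p of 0.00114 and DESeq2 1.82e-06. Mup17 was also apart, with CD mice at 17.8, 22.4, 12.1, 17.3 and 18.8 CPM and WD mice at 3.64 to 10.6 CPM (median 9.14) (log2 fold change of -1.15 ± 0.47 (SE), adjusted p = 0.114). The 2 members whose ranges were apart stood beside 3.94% of all genes. Mup20 did not pass (log2 fold change of 0.21 ± 0.37 (SE), adjusted p = 0.79). Without the low C57BL/6J mouse, Mup21 also passed in A/J (adjusted p = 0.0133), with CD mice at 37.4 to 175 CPM (median 87.3) and WD mice at 9.55 to 88.3 CPM (median 22.8).

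In 129S1/SvImJ, Mup10 alone passed the test and rose, beside 14.5% of all genes that rose, 13.6% that fell and 28.0% in all. Mup10 ranged from 0.547 to 2.72 CPM (median 1.11) on CD and from 1.41 to 3.01 CPM (median 2.13) on WD (log2 fold change of 0.88 ± 0.26 (SE), adjusted p = 0.00602), and the ranges overlapped. Neither edgeR (adjusted p = 0.0955) nor DESeq2 (adjusted p = 0.073) called it. In CAST/EiJ no member passed limma's test, beside 9.77% of all genes that rose, 9.73% that fell and 19.5% in all, and 0 had an unadjusted p below 0.05. edgeR and DESeq2 called none either. The log2 fold changes in CAST/EiJ lay between -0.14 and 0.40.

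**Figure D4:**
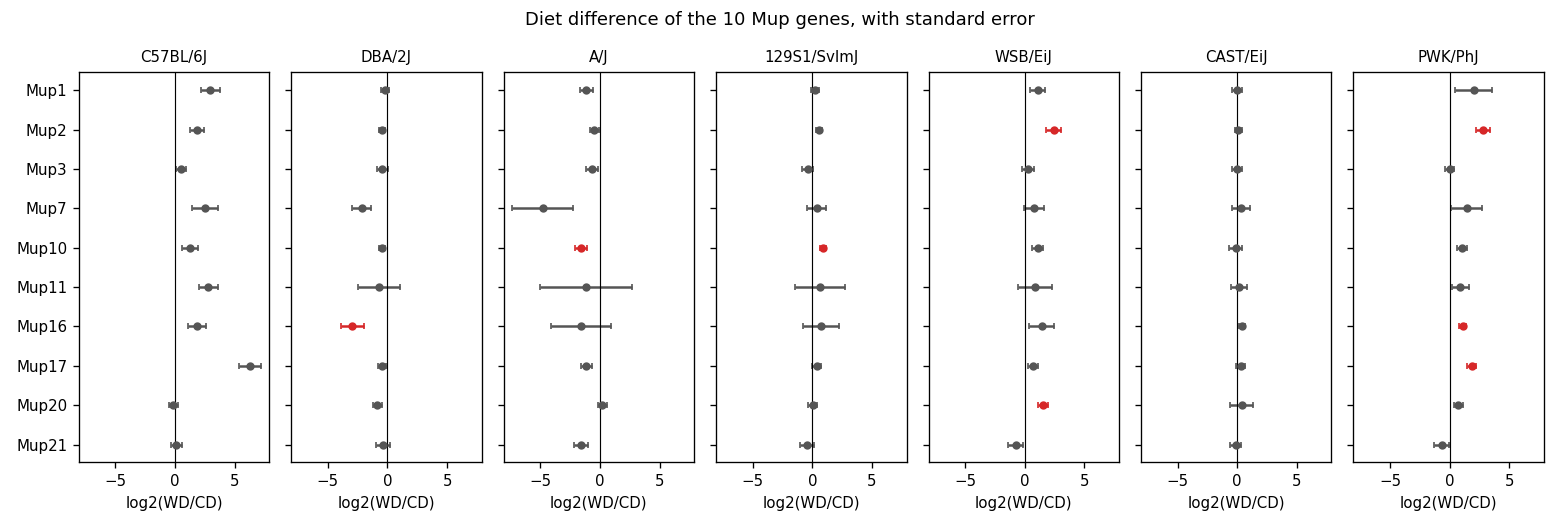
Log2 fold change (WD over CD, horizontal axis) with its standard error for the 10 Mup genes in 7 strains. Red points passed an adjusted p of 0.05 in the 6 strains tested, and the C57BL/6J values are drawn without a test. Most points lie below 0 in DBA/2J and A/J and above 0 in WSB/EiJ and PWK/PhJ.

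Whether the diet effect differed between the 6 strains other than C57BL/6J was tested with an F test. It did for 5 of the 10 members, beside 33.2% of all genes, namely Mup2 (adjusted p = 3.13e-05), Mup17 (0.000409), Mup10 (0.00168), Mup16 (0.00384) and Mup20 (0.00818). Mup3, whose sequence is nearly unique, had an adjusted p of 0.752, and Mup21 of 0.674. The spread in this test comes from all 14 groups, the low C57BL/6J mouse included. These 2 values therefore do not show that the diet effect was alike in the strains. The median log2 fold change over the 10 members was -1.17 in A/J, -0.46 in DBA/2J, 0.14 in CAST/EiJ, 0.36 in 129S1/SvImJ, 0.96 in WSB/EiJ and 1.07 in PWK/PhJ, while the median over all genes lay between -0.01 and 0.02.

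Reads that mapped to several places, in which copies of the family are lost, made up 8.03% to 12.2% of reads. Their share fell on WD in DBA/2J, from 10.0% ± 0.0924 (SD, n = 6) to 9.41% ± 0.364 (SD, n = 7; exact two-sided permutation test, adjusted p = 0.0326 over 7 strains). In the 6 other strains it did not pass the exact test, with differences from -0.05 to 0.61 percentage points and adjusted p-values from 0.157 to 0.907. Whether these reads came from the family was not tested. The share of reads that mapped nowhere, tested in the same way, rose on WD in PWK/PhJ, from 3.504% ± 0.708 (SD, n = 6) to 7.88% ± 1.18 (SD, n = 7; exact permutation test, adjusted p = 0.00816). It fell in DBA/2J, from 6.446% ± 0.620 (SD, n = 6) to 4.77% ± 0.665 (SD, n = 7; exact permutation test, adjusted p = 0.00816). It rose in CAST/EiJ (by 2.46 percentage points, exact permutation test, adjusted p = 0.0131), 129S1/SvImJ (by 1.01, adjusted p = 0.0408) and C57BL/6J (by 0.59, adjusted p = 0.0459), and did not pass in WSB/EiJ (2.90, adjusted p = 0.0505) or A/J (-0.14, adjusted p = 0.268). Its part in the Mup values was not tested.

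Among the 12 other protein-coding Mup genes, 10 reached a mean of 1 CPM in a group: Mup6, Mup8, Mup9, Mup12, Mup13, Mup14, Mup15, Mup18, Mup19 and Mup22. Of the pseudogenes 13 did. In CAST/EiJ, Mup12 had 6708 ± 1555 CPM (SD, n = 7) on CD and 8031 ± 932 CPM (SD, n = 8) on WD. Per length it stood beside Mup3 there, at 7244 against 7226 CPM per kb on CD and 8673 against 7137 on WD. It was at 1.31 ± 1.31 CPM (SD, n = 8) in C57BL/6J on CD. Of its 100-base windows 22.5% are its own. Of the 11 protein-coding ones tested, 7 rose and none fell in PWK/PhJ, 4 rose in WSB/EiJ, 2 in 129S1/SvImJ and 1 in CAST/EiJ, while 1 fell in DBA/2J and 1 in A/J. The latter was Mup12 (log2 fold change -3.35 ± 0.53, adjusted p = 4.73e-06). Mup18 in PWK/PhJ had 14.2 to 115 CPM (median 86.1) on CD and 177 to 497 CPM (median 364) on WD (log2 fold change 2.49 ± 0.31, adjusted p = 6.42e-10). Of 18 pseudogenes tested, 13 rose in PWK/PhJ, 6 in WSB/EiJ, 3 in 129S1/SvImJ and 2 in CAST/EiJ. In DBA/2J 1 rose and 2 fell, and in A/J none passed limma's test. Of all genes, 15.1% rose in PWK/PhJ, 4.97% in WSB/EiJ, 14.5% in 129S1/SvImJ, 9.77% in CAST/EiJ and 10.2% in DBA/2J. In DBA/2J 7.77% of all genes fell, and in A/J 4.64%. The counts in 129S1/SvImJ, CAST/EiJ and DBA/2J were thus near or below the shares of all genes. Copies that share reads are not separate observations, so none of these counts shows how many genes changed. The highest group mean of a pseudogene was only 6.18 CPM. Without the low PWK/PhJ mouse, 6 of the 11 protein-coding genes and 12 of the 18 pseudogenes rose there.

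Regulators of the family were tested in the same fit, and the values in brackets are log2 fold changes with their SE and limma's adjusted p. Of the 11 known regulators of Mup genes tested, 4 passed in DBA/2J, 3 in 129S1/SvImJ, 2 in WSB/EiJ, 1 in A/J, 1 in CAST/EiJ and none in PWK/PhJ by limma. Of all genes, 18.0%, 28.0%, 8.94%, 9.03%, 19.5% and 29.6% passed in these strains in the same order. The shares in 129S1/SvImJ and A/J were thus near the background, and those in CAST/EiJ and PWK/PhJ were below it. Stat5b fell in DBA/2J (-0.30 ± 0.09, adjusted p = 0.0106) and 129S1/SvImJ (-0.24 ± 0.09, adjusted p = 0.0271). Bcl6, a repressor that opposes STAT5, fell in A/J (-1.67 ± 0.57, adjusted p = 0.0486). Zhx2, a transcription factor of liver genes, rose in WSB/EiJ (0.35 ± 0.10, adjusted p = 0.012). Of the 16 growth hormone signalling genes, 5 passed in 129S1/SvImJ, 2 in A/J, 1 in DBA/2J, 1 in PWK/PhJ and none in WSB/EiJ or CAST/EiJ. The shares in 129S1/SvImJ and A/J were again near those of all genes, and the others were below them. Socs2, a growth hormone target, rose in 129S1/SvImJ (1.21 ± 0.41, adjusted p = 0.0185) and fell in C57BL/6J (-0.92 ± 0.34, adjusted p = 0.0337). In the 5 other strains its log2 fold change was between -0.86 and -0.42 and did not pass.

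Sex-biased liver genes were set beside the family, since most Mup genes are male-biased. In PWK/PhJ, 9 of 15 female-biased genes fell and none rose on WD, with a median log2 fold change of -2.18. They included Cyp3a16 (-2.18 ± 0.45, adjusted p = 7.55e-05) and Cyp2a4 (-2.38 ± 0.67, adjusted p = 0.00389), both cytochrome P450 genes. Their summed level was 1321 to 3793 CPM on CD and 238 to 609.9 CPM on WD, so the groups were apart, and 9 fell also without the low mouse. Of the 15 male-biased genes, 1 rose and none fell there. In A/J, 4 male-biased genes fell and none rose, with a median of -0.70, and 2 female-biased genes rose. Serpina1e, a male-biased serpin gene, fell in A/J (-4.85 ± 0.69, adjusted p = 4.16e-07). In DBA/2J, 3 male-biased genes fell and none rose. In WSB/EiJ, 1 male-biased gene rose, 1 female-biased gene rose and 2 fell. In 129S1/SvImJ, 3 male-biased genes rose and 1 fell, while 1 female-biased gene rose and 2 fell. In CAST/EiJ, where no member passed, 3 female-biased genes fell and 1 rose, with a median of -0.50, and 1 male-biased gene rose. Of all genes, 14.5% fell and 15.1% rose in PWK/PhJ, and 4.64% fell and 4.39% rose in A/J. In DBA/2J 7.77% fell and 10.2% rose, and in WSB/EiJ 3.97% fell and 4.97% rose. In 129S1/SvImJ 13.6% fell and 14.5% rose, and in CAST/EiJ 9.73% fell and 9.77% rose. The counts of 1 gene, and that of 2 in 129S1/SvImJ, were near or below these shares. The part of the sex-biased genes in the Mup levels was not tested.

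**Figure D5:**
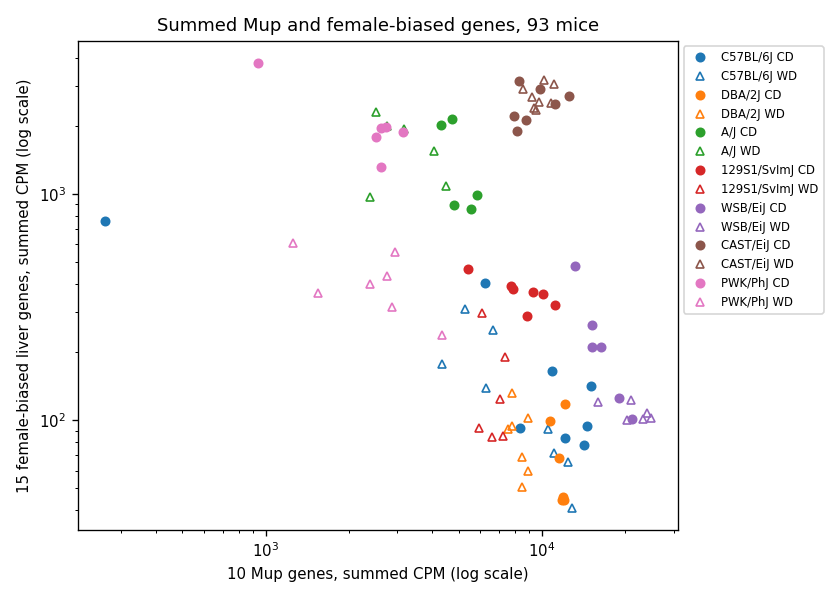
Summed CPM of the 10 Mup genes (horizontal, log axis) against summed CPM of 15 female-biased liver genes (vertical, log axis) in the 93 mice, coloured by strain, with filled circles for CD and open triangles for WD. The low C57BL/6J mouse on CD lies at 262 and 760.1 CPM and the low PWK/PhJ mouse on CD at 936 and 3793 CPM, and the other PWK/PhJ mice split by diet on the vertical axis.

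Of the 11 other lipocalins tested, Apom, which carries lipids in plasma, fell in 7 of 7 strains, by 0.54 to 1.56 on the log2 scale. Lcn2, an acute-phase lipocalin, rose in 6 of 7 strains, among them PWK/PhJ (4.71 ± 0.57, adjusted p = 1.99e-10). In CAST/EiJ it did not pass (0.43 ± 1.16, adjusted p = 0.859). The 9 hepatocyte markers matched of 10 were present in all 93 mice. Their summed level had a lower median on WD than on CD in every strain, for example 133272 against 83351 CPM in PWK/PhJ and 154962 against 93971 CPM in WSB/EiJ, where Mup genes rose. Leukocyte markers had medians of 46.6 and 143 CPM in PWK/PhJ and 75.1 and 126 CPM in WSB/EiJ on CD and WD, and 8 of 10 rose in PWK/PhJ, 9 in 129S1/SvImJ, 4 in WSB/EiJ, 2 in A/J, 1 in CAST/EiJ and none in DBA/2J. In PWK/PhJ, 6 of 8 stellate and fibroblast markers also rose (medians of the sum 199.5 and 530.3 CPM), as did 5 of 6 cholangiocyte markers (109 and 370.0 CPM). In WSB/EiJ none of either list passed limma's test. Of the 8 stellate and fibroblast markers, 4 rose in 129S1/SvImJ, 2 in A/J and none in DBA/2J or CAST/EiJ. Of the 6 cholangiocyte markers, 1 rose in 129S1/SvImJ, 1 rose in CAST/EiJ and none passed in A/J. In DBA/2J 1 fell, beside 7.77% of all genes that fell. Of all genes, 15.1% rose in PWK/PhJ, 14.5% in 129S1/SvImJ, 4.97% in WSB/EiJ, 4.39% in A/J, 9.77% in CAST/EiJ and 10.2% in DBA/2J. The leukocyte count in CAST/EiJ was near that share, and a count of 1 cholangiocyte marker is not read as a change of the list. The part of the cells of these marker lists in the Mup levels was not tested. In whole liver, fewer hepatocytes and less RNA per hepatocyte cannot be told apart.

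The genes whose pattern over the 14 group means was most like the summed members were Trarg1 (r = 0.93), Rab4b (r = 0.92), Ing3 (r = 0.91), Ccno (r = 0.91), Hectd2 (r = 0.90). For Mup20 they were Fyb2 (r = 0.96), Gm10416 (r = 0.93), Vta1 (r = 0.93), Ccdc12 (r = 0.93), Rnpep (r = 0.92). These are Pearson correlations of mean log2 CPM over 14 groups that share strains, given as a description.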

How the data were processed

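RNA from the livers of 93 mice was sequenced by the authors (SMARTER libraries, BGISEQ-500) and mapped to the C57BL/6J genome with STAR 2.7.1a. The deposited values are raw counts, whole numbers of uniquely mapped reads per gene, with no normalization by the authors. The annotation release, strand setting and read length are not given in the sources used here. Coordinates, symbols and gene lengths came from GENCODE on GRCm38, the build the authors used. All 93 columns were used.

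The analysis used R (4.3.3), limma (3.58.1), edgeR (4.0.16) and DESeq2 (1.42.0). filterByExpr with a minimum count of 10 kept 19110 genes. TMM factors were computed, voom was fitted with a mean for each of 14 groups, and WD was compared with CD in each strain by limma with Benjamini–Hochberg adjustment over all genes (threshold 0.05). CPM are TMM-scaled, and CPM per kb are divided by exon length. DESeq2, edgeR's quasi-likelihood test and other settings were alternatives. The fits were tested on simulated data. Members and gene lists were chosen with earlier results of these data known. Named genes were all members, other Mup genes at 1 CPM or more in a group, at most 4 genes per list (those called in the most strains), any regulator (the values of 1 are not reported here), and the 5 genes most like the summed members or Mup20. The labels give no replicate numbers, so mice are numbered by order. Each mouse is a separate animal. Depth was 40020424 to 49894856 reads on genes.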

Additional observations from a re-analysis of the deposited data

Results flagged for a closer look

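In 154 sets of mice, 10 members and their sum in 14 groups, a single mouse stood apart from its group 13 times. The measure was the gap from that mouse to the next over the range of its group. A rate of about 1 in 20 by chance would hold for separate sets of normally distributed values. These sets share mice and reads, so the 13 are not compared with it. Mup2 in A/J CD had a lowest mouse at 6.30 CPM, against 9.75 to 10.9 in the other 4. Mup7 in WSB/EiJ WD had a highest mouse at 535 CPM, against 103 to 210.0 in the other 5. Mup10 in DBA/2J CD had a highest mouse at 3.11 CPM, against 1.71 to 2.00 in the other 5. Mup16 in C57BL/6J WD had a highest mouse at 11.03 CPM, against 0.145 to 4.59 in the other 7. Mup16 in CAST/EiJ CD had a highest mouse at 66.6 CPM, against 15.7 to 37.5 in the other 6. Mup17 in C57BL/6J CD had a highest mouse at 2.08 CPM, against 0.0168 to 0.844 in the other 7. Mup17 in PWK/PhJ CD had a lowest mouse at 19.2 CPM, against 104 to 135 in the other 5. Mup20 in C57BL/6J CD had a lowest mouse at 209 CPM, against 4154 to 7154 in the other 7. Mup20 in WSB/EiJ CD had a highest mouse at 2502 CPM, against 333 to 785 in the other 5. Mup20 in PWK/PhJ WD had a highest mouse at 2038 CPM, against 488 to 1146 in the other 6. Mup21 in CAST/EiJ WD had a highest mouse at 228 CPM, against 29.0 to 102 in the other 7. Mup21 in PWK/PhJ CD had a lowest mouse at 680.2 CPM, against 1658 to 1866 in the other 5. The summed members in PWK/PhJ CD had a lowest mouse at 0.0947% of reads on genes, against 0.258 to 0.316 in the other 5. The 3 PWK/PhJ values on CD that lay low came from 1 mouse. 

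The diet effect differed between the 6 strains other than C57BL/6J for 5 members by limma's F test: Mup2 (F = 9.06, adjusted p = 3.13e-05), Mup10 (F = 5.62, adjusted p = 0.00168), Mup16 (F = 4.95, adjusted p = 0.00384), Mup17 (F = 6.78, adjusted p = 0.000409), Mup20 (F = 4.36, adjusted p = 0.00818). Mup2 rose in WSB/EiJ and PWK/PhJ, Mup17 and Mup16 in PWK/PhJ, Mup20 in WSB/EiJ and Mup10 in 129S1/SvImJ, while Mup16 fell in DBA/2J and Mup10 in A/J.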

How the results depend on the processing

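Of 896 recomputed values (70 member and strain results), 821 kept their direction and side of the threshold or stayed uncalled, 22 lost a call, 53 gained one and 0 turned a call around. These totals include the C57BL/6J values, from which nothing is read as a test. The counts of called members moved most with the separate fit for each strain, which gave 1 in WSB/EiJ, 3 in 129S1/SvImJ, 5 in A/J and 8 in DBA/2J. With at least 10 counts in every mouse only 3 members were tested. The counts were then 0 in DBA/2J, 129S1/SvImJ and PWK/PhJ and 1 in WSB/EiJ, with 1 member differing between strains. With no filter there were 2 in DBA/2J, 0 in A/J and 3 differing between strains. DBA/2J had 3 called members with sample quality weights and 2 with cohort as a covariate. PWK/PhJ had 4 with either setting, and A/J had 4 with the weights and 2 with cohort. For 129S1/SvImJ the weights gave 2. Counts for C57BL/6J are left out, since its Mup17 change was known before the genes were chosen. edgeR gave 2 in A/J and 0 in 129S1/SvImJ, and DESeq2 3 and 0. The cause was not tested beyond the smaller number of genes tested under the strict filter. The shares of all genes called under these settings, or without a mouse, are not given here. The counts are therefore not set against a background.

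Leaving out each A/J mouse in turn gave 0 to 2 members in A/J. After seeing the data, the low C57BL/6J mouse on CD was left out, which gave 5 members in PWK/PhJ, 2 in A/J and 3 in DBA/2J. Leaving out the low PWK/PhJ mouse gave 3 in PWK/PhJ. With reads mapped to several places added to the denominator, the summed members were 1.02% in DBA/2J on CD, 0.733% in DBA/2J on WD, 0.630% in 129S1/SvImJ on WD, 1.71% in WSB/EiJ on WD and 0.840% in CAST/EiJ on WD. The share of reads mapped to several places kept its calls with mapped reads as the denominator. No paired analysis was possible because the labels give no replicate numbers and mice of the diets are separate animals. Members with few reads, such as Mup10, are limited by counting error.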
